A study of Homo sapiens with 2 samples.

Results

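The 10 genes described here encode the human ATG8 proteins (MAP1LC3A, MAP1LC3B, MAP1LC3C, GABARAP, GABARAPL1 and GABARAPL2) and the WIPI proteins (WIPI1, WIPI2, WDR45B, also called WIPI3, and WDR45, also called WIPI4). They were chosen by name, as the main members of these families of core autophagy proteins, with earlier results of these data known. Each was found on the array through 1 probe set whose annotation lists that gene alone, among 18417 genes named in this way. U251 cells, an established human glioblastoma line, were grown in high-glucose medium and given 5 µM G-TPP or its solvent DMSO for 6 h, and there was 1 array for G-TPP and 1 array for DMSO. G-TPP is a Gamitrinib, a compound that carries an Hsp90 inhibitor into mitochondria, and the study asked how mitochondrial and other transcripts answer when the Hsp90 chaperones there are targeted. A single array for each agent leaves no replicate to check a difference, so none below has a standard error or p-value, and "higher" or "lower" is said of these 2 arrays alone.

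In autophagy, a cup-shaped membrane closes around cytoplasm to form an autophagosome, which then fuses with a lysosome. A lipid kinase complex marks the site with phosphatidylinositol 3-phosphate, and WIPI proteins, which fold as beta-propellers, bind that lipid and bring in the machinery that feeds the membrane with lipid and attaches ATG8. ATG8 proteins resemble ubiquitin: they are cut by ATG4 proteases, joined to phosphatidylethanolamine in the growing membrane, and there hold cargo receptors, so that some of the ATG8 protein is itself consumed with the cargo. The ATG8 family has an LC3 branch and a GABARAP branch.

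Intensities are the deposited RMA values on a linear scale, and a difference is log2 G-TPP minus log2 DMSO of 1 probe set, so that 1 is a 2-fold ratio. A gene passed the brightness filter if its brighter array reached 239.2, the median of that value over all probe sets. Genes past it, 11091 in all, had a median difference of -0.04. The differences of 341 olfactory receptor genes, mostly silent outside the nose, had a standard deviation of 0.19, and in 328 genes measured by 2 probe sets past the filter the scatter was 0.17 per probe set; neither covers the variation between cultures. Of 11 astroglial or glioma markers 8 passed the filter, with VIM and CD44 bright in both arrays. S100B and AQP4 stayed in both arrays below the level that 95% of olfactory receptors do not exceed. GFAP, at 231.5 with G-TPP and 245.2 with DMSO, passed the filter through the DMSO array alone. Of all genes past the filter 44.0% were higher with G-TPP, and of the 8 markers past it 2 were. These were SLC1A3, at 1183 with G-TPP and 758.8 with DMSO, and FABP7, at 380.6 with G-TPP and 329.1 with DMSO. The others were lower, though GFAP (-0.08), VIM (-0.14) and CD44 (-0.07) lay within the scatter of 0.17. SOX2 had 1629 with G-TPP and 4434 with DMSO. SOX9 had 466.7 with G-TPP and 921.9 with DMSO, and NES had 678.8 with G-TPP and 962.8 with DMSO. The summed intensity of the 11 was 19039 with G-TPP and 23181 with DMSO. Of 13 markers of immune, endothelial, epithelial, neuronal and liver cells 5 passed the filter, none of these differing by more than 0.18 in either direction, and the summed intensity of the 13 was 2371 with G-TPP and 2516 with DMSO. Their part in the results below was not tested. In RNA from a whole culture, a few cells with a large change and many cells with a small one cannot be told apart.

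In both families 1 member was over 5-fold higher with G-TPP while its closest relatives differed little. GABARAPL1 was 5.70-fold higher, WIPI1 5.52-fold higher and MAP1LC3B 2.50-fold higher, and these were the 3 of the 10 genes at or above 2-fold. Over all named genes, with no filter, 1.74% were at least 2-fold higher, and over the genes past the filter 2.80%. None of the 10 was at least 2-fold lower, against 0.353% of all named genes and 0.550% of those past the filter. In all, 9 of the 10 differences were above 0, with a median of 0.33, against 39.2% of all named genes and a median of -0.06. Because the families were chosen with earlier results of these data known, the shares describe these genes and are not a test.

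**Figure D1:**
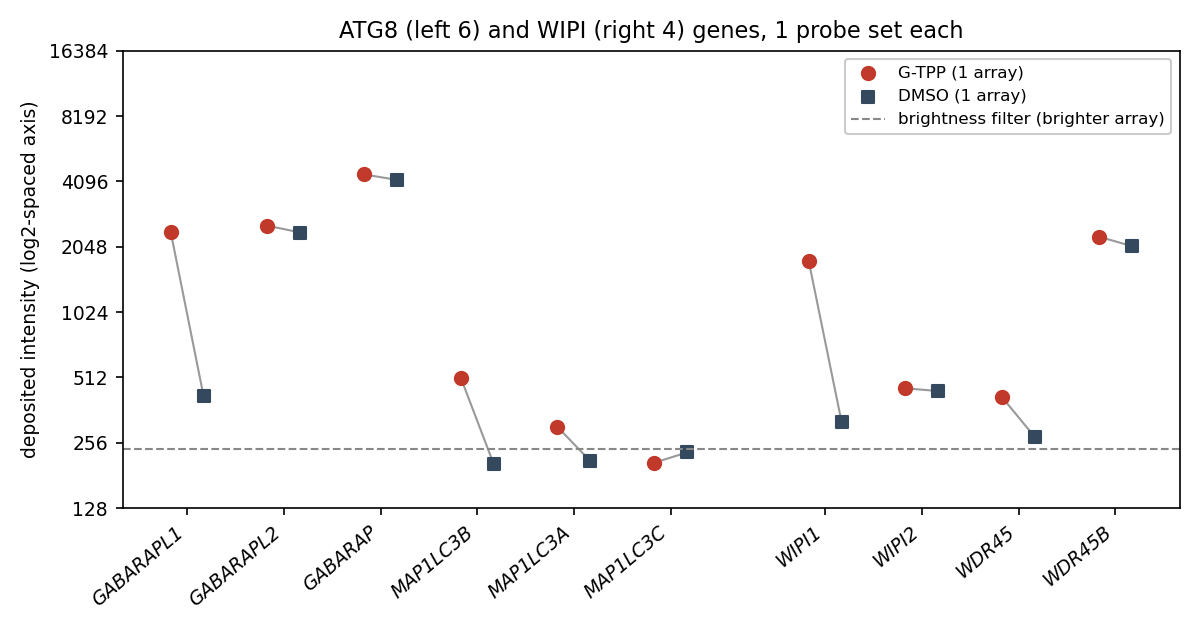
Deposited intensity of each ATG8 and WIPI gene with G-TPP (circles, 1 array) and with DMSO (squares, 1 array), on a log2-spaced axis; a grey line joins both values of a gene, and the dashed line is the brightness filter of 239.2 that the brighter array had to reach. GABARAPL1, MAP1LC3B and WIPI1 have the steepest lines, and MAP1LC3C lies under the filter in both arrays; heights of different genes are not comparable, since probe sets differ in how strongly they bind.

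The GABARAP branch, whose founder was described as a partner of the GABA type A receptor, split widely. GABARAPL1 (probe set 7953943), the ATG8 closest to GABARAP, had an intensity of 2395 with G-TPP and 419.9 with DMSO, a log2 difference of 2.51. Its value was the 27th highest of the 11091 genes past the filter, and 0.243% of them were as high or higher. GABARAP itself (probe set 8012110) had 4412 with G-TPP and 4162 with DMSO, a difference of 0.08. GABARAPL2 (probe set 7997272), known also as GATE-16 and for transport in the Golgi, had 2560 with G-TPP and 2382 with DMSO, a difference of 0.10. These last values are smaller than the scatter of 0.17 between probe sets of 1 gene, and both genes were bright in both arrays. GABARAPL3 (probe set 7991395), which RefSeq lists as a transcribed pseudogene and which is a near-identical copy of GABARAPL1, had 298.6 with G-TPP and 178.5 with DMSO, a difference of 0.74. It passed the filter through the G-TPP array alone. Its DMSO value was close to the 95th percentile of olfactory receptors there (172.6), which limits this ratio. Such copies can share probes with their parent gene, and whether part of either signal comes from the other was not tested.

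The bases just upstream of GABARAPL1 and of GABARAP are shown because these close paralogs differed widely in their log2 difference. Each is the 250 bases before the RefSeq start in GRCh38.p14, on the strand of the gene, at chr12:10212627-10212876 (+) for GABARAPL1 and chr17:7242450-7242699 (-) for GABARAP. Capitals mark the cAMP response element TGACGTCA, which factors of the ATF and CREB families bind, and the GC box GGGCGG, which Sp1-type factors bind, each searched on both strands with overlapping matches counted separately.
GABARAPL1: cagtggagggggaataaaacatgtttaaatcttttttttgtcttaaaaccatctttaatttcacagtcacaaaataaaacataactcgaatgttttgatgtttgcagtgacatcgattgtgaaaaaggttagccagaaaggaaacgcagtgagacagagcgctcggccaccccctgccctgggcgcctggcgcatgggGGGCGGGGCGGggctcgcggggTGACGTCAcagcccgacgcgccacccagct
GABARAP: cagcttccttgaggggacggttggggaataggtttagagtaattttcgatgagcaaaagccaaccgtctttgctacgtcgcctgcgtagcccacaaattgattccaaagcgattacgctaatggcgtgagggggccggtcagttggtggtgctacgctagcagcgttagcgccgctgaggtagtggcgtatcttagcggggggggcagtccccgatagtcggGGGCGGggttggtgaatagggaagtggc
GABARAPL1 held 1 cAMP response element, from base -30 to base -23 counted back from the start, and 2 GC boxes that share a base. GABARAP held 1 GC box and no cAMP response element. Among 35116 RefSeq promoters of the same length, 1.65% held a cAMP response element and 42.6% a GC box. The motifs were chosen with the sequences in view, so the shares are not a test. A match describes the letters and shows no binding.

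In the LC3 branch, MAP1LC3B was the member that reached 2-fold. MAP1LC3B (probe set 7997740), the ATG8 used as the common marker of autophagosomes, had 510.6 with G-TPP and 204.5 with DMSO, a log2 difference of 1.32 and the 155th highest of the genes past the filter. MAP1LC3A (probe set 8062023), its close relative, had 302.9 with G-TPP and 210.6 with DMSO, a difference of 0.52, and 8.67% of the genes past the filter were as high or higher. Both genes were under the filter with DMSO and passed it through the G-TPP array, so that they could not have passed it without being higher there. MAP1LC3C (probe set 7925504), which is known to bind the receptor CALCOCO2 selectively, had 207.0 with G-TPP and 230.9 with DMSO, a difference of -0.16. It was the member of the 10 that failed the filter, just under it, and the nearest member above the filter was MAP1LC3A. All 3 exceeded in both arrays the 95th percentile of olfactory receptors, which was 173.6 with G-TPP and 172.6 with DMSO. With DMSO, and for MAP1LC3C also with G-TPP, they did so by little. Background left in dim probe sets draws ratios towards 1. A further probe set is annotated to MAP1LC3B and to MAP1LC3B2, a near-identical gene, and is described among the additional observations because it cannot be assigned to either.

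The upstream bases of MAP1LC3B are printed in the same way, at chr16:87392086-87392335 (+) in GRCh38.p14, with GC boxes in capitals.
MAP1LC3B: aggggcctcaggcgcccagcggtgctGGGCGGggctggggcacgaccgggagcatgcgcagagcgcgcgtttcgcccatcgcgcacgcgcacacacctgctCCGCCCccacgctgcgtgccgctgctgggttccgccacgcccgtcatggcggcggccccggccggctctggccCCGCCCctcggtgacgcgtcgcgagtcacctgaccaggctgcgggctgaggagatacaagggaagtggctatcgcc
They held 3 GC boxes and no cAMP response element.

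Among the WIPI genes, WIPI1 stood apart. WIPI1 (probe set 8017850), the WIPI protein first used to count autophagosome formation sites in cells, had 1753 with G-TPP and 317.7 with DMSO, a log2 difference of 2.46. It was the 29th highest of the genes past the filter, close to GABARAPL1. WIPI2 (probe set 8131303), which binds the same lipid and recruits ATG16L1 and with it the enzyme that lipidates ATG8, had 456.1 with G-TPP and 442.8 with DMSO, a difference of 0.04. WDR45 (probe set 8172538), a partner of the lipid transfer protein ATG2 and mutated in a form of neurodegeneration with brain iron accumulation, had 414.2 with G-TPP and 271.1 with DMSO, a difference of 0.61, and 6.89% of the genes past the filter were as high or higher. WDR45B (probe set 8019523), which also binds ATG2, had 2279 with G-TPP and 2062 with DMSO, a difference of 0.14. WIPI2 and WDR45B thus lay within the scatter between probe sets, and WDR45 lay beyond it and under 2-fold.

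The upstream bases of WIPI1 and WIPI2 are shown for the same comparison between paralogs, at chr17:68457497-68457746 (-) for WIPI1 and chr7:5189983-5190232 (+) for the first of 2 RefSeq starts of WIPI2, both in GRCh38.p14 and with GC boxes in capitals.
WIPI1: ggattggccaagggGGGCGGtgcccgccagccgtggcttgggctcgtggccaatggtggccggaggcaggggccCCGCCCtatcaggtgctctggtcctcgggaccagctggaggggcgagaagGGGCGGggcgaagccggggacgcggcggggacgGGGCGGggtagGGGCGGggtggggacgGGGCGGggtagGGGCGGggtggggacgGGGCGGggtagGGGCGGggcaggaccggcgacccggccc
WIPI2: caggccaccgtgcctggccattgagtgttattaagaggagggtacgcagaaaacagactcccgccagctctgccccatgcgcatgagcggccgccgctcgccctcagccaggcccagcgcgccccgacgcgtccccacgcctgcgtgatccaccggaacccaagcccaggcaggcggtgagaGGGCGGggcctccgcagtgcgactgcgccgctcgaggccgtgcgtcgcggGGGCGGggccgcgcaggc
WIPI1 held 9 GC boxes, most of them in a repeated run near the start, and 0.285% of the 35116 promoters held as many or more. WIPI2 held 2 at this start and 0 at the other. GABARAPL2, with a log2 difference of 0.10, held 3, as did MAP1LC3B. The motif was chosen with the sequences in view, so the share describes WIPI1 and is not a test. RefSeq promoters were at hand for 8 of the 10 genes, 10 in all, and GABARAPL1 was the 1 gene of the 8 with a cAMP response element. None of the 10 promoters held the E-box CACGTG, the core of the site of TFEB and its relatives, which 6.34% of all promoters held. None held the composite site TGATGNAAT of C/EBP and ATF factors, which 0.888% held, nor the ER stress response element, CCAAT and CCACG at a spacing of 9 bases, which 0.0740% held. No match says only that these letters are not in these windows.

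**Figure D2:**
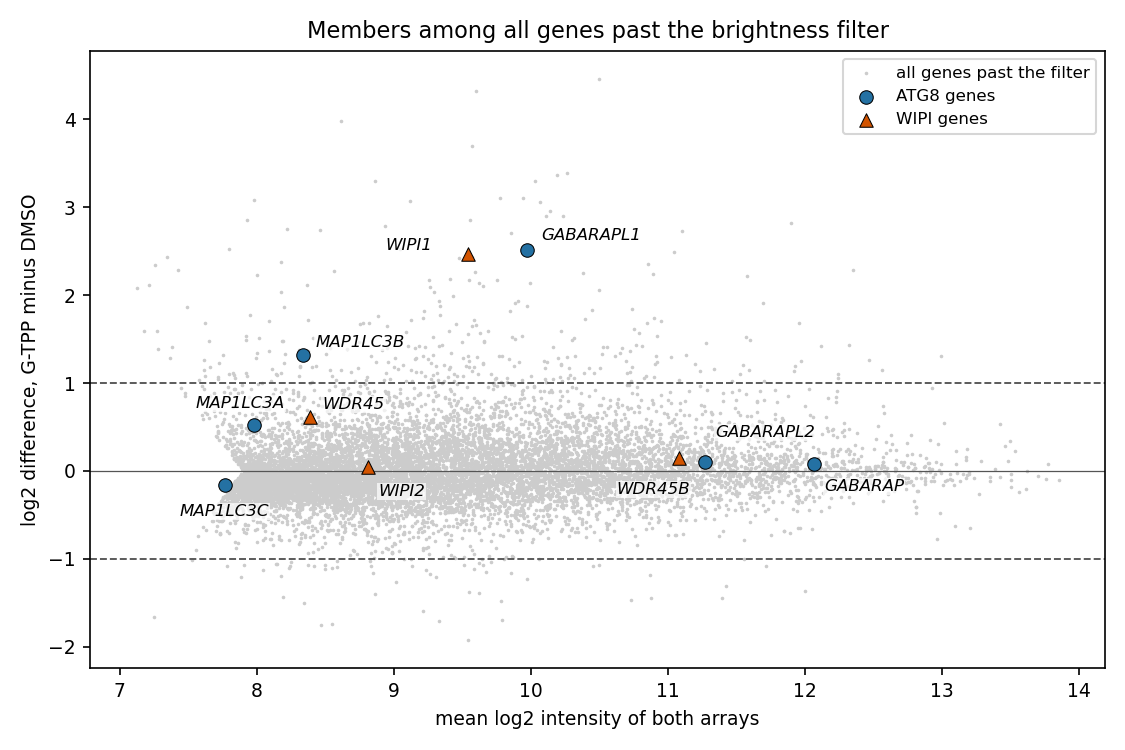
Log2 difference (G-TPP minus DMSO) against the mean log2 intensity of both arrays for the 11091 genes past the brightness filter (grey points), with ATG8 genes as circles and WIPI genes as triangles; dashed lines mark 2-fold. GABARAPL1 (2.51) and WIPI1 (2.46) lie far above the mass of genes of like brightness, while GABARAP, GABARAPL2, WDR45B and WIPI2 lie inside it; MAP1LC3C is drawn although it did not pass the filter.

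Set against each other, the members of 1 family ran from gaps many times the scatter between probe sets to gaps below it. The difference of GABARAPL1 exceeded that of GABARAP by 2.43 on the log2 scale, which makes the ratio of G-TPP to DMSO 5.38 times as large in GABARAPL1. WIPI1 exceeded WIPI2 by 2.42, a 5.36 times larger ratio. MAP1LC3B exceeded MAP1LC3A by 0.80, a 1.74 times larger ratio, from a pair of dim probe sets. WDR45B minus WDR45 was -0.47, so here WDR45 had the higher difference. At the other end GABARAPL2 and GABARAP differed by 0.02 and WDR45B and WIPI2 by 0.10, less than the scatter. Each gap is between 2 probe sets on the same 2 arrays, and no replicate culture bears on it.

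Genes of the machinery that acts on ATG8 and with the WIPI proteins mostly stayed under 2-fold, as did most genes past the filter. Of 55 genes in 4 lists by role 53 were on the array and 50 passed the filter; 2 of these reached 2-fold upwards and 0 downwards, beside 2.80% and 0.550% of all genes past the filter. Above 0 were 36 of the 50 (72.0%), with a median of 0.16, beside 44.0% and a median of -0.04 over all genes past the filter. The 11 conjugation enzymes, which process ATG8 and attach it to lipid, had a median log2 difference of 0.10 with 0 at 2-fold in either direction. ATG5, part of the ligase, had 1787 with G-TPP and 1410 with DMSO (0.34), the protease gene ATG4A had a difference of 0.29, and the protease gene ATG4C had one of -0.29.

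The list of lipid kinase and lipid transfer genes, which includes phosphatases of the lipid bound by WIPI proteins, had a median of 0.08 over 15. NRBF2, a subunit of the autophagy-specific lipid kinase complex, was the 1 member at 2-fold, at 925.0 with G-TPP and 351.8 with DMSO (1.39). ATG14, which directs that complex to autophagosome sites, had 462.4 with G-TPP and 289.3 with DMSO (0.68). MTMR3, a phosphatase that removes the lipid signal, had a difference of 0.77 by its brighter probe set and 0.19 by the other. Of the 5 initiation kinase genes none reached 2-fold and 4 were above 0, with a median of 0.34. Over all genes past the filter 2.80% were at least 2-fold higher and 44.0% were above 0. ATG13 had a difference of 0.73, RB1CC1, the scaffold FIP200, 0.61, and the kinase gene ULK1 0.34.

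Receptors and adaptors that dock on ATG8 had a median of 0.21 over the 19 of 22 that passed the filter. Of the 19, 14 were above 0, beside 44.0% of all genes past the filter, where 2.80% were at least 2-fold higher. CALCOCO2, also called NDP52, a receptor for bacteria and mitochondria that binds MAP1LC3C, had 1364 with G-TPP and 458.1 with DMSO, a log2 difference of 1.57, and was the 1 receptor at 2-fold. TAX1BP1, its relative, had 1710 with G-TPP and 1008 with DMSO (0.76), and NBR1, a receptor of ubiquitinated cargo, 1413 with G-TPP and 895.1 with DMSO (0.66). SQSTM1, which encodes the receptor p62, had 3207 with G-TPP and 2193 with DMSO (0.55).

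**Figure D3:**
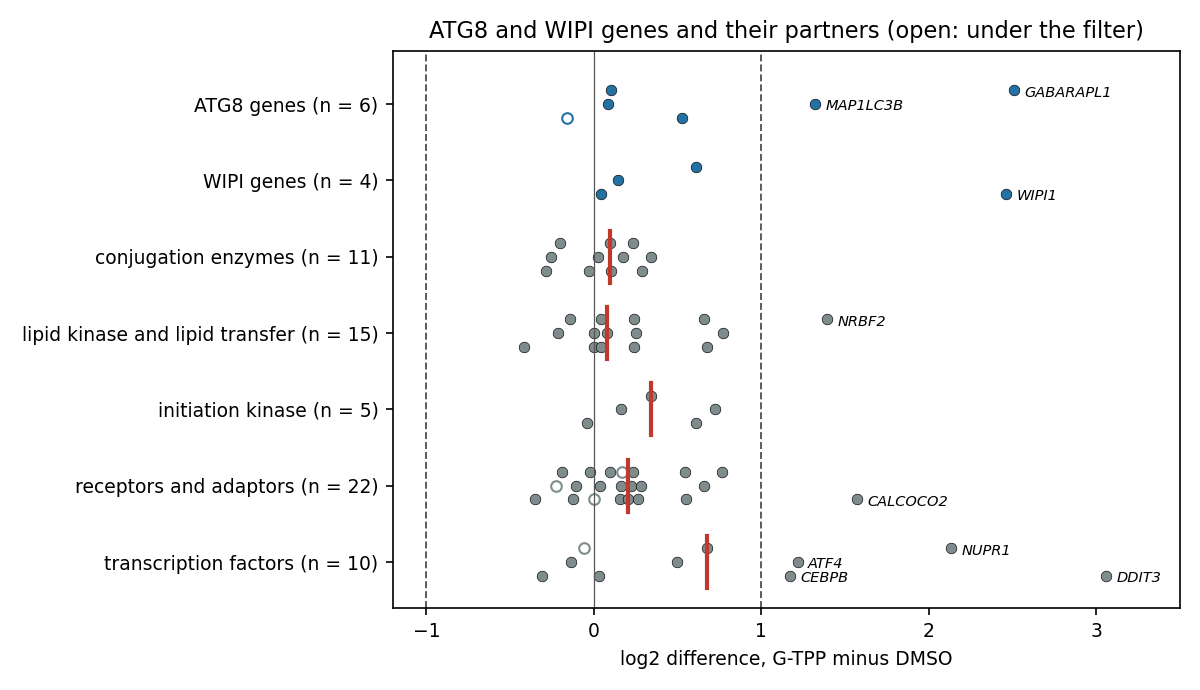
Log2 difference (G-TPP minus DMSO) of every measured gene of the ATG8 and WIPI families, of 4 lists of their partners and of a list of transcription factors, 1 point per gene; filled points passed the brightness filter, open ones did not, red bars are the medians of the filled points of the partner lists, and dashed lines mark 2-fold. NRBF2 and CALCOCO2 are the partner genes past 2-fold, and the conjugation enzymes lie between -0.29 and 0.34.

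Of 12 autophagy genes described in mouse fibroblasts as targets of the stress factors ATF4 or CHOP, members included, all 12 passed the filter. Of these 11 were above 0, and the median of the 12 was 0.14. ATG3 (0.03), BECN1 (0.04), GABARAP (0.08), ATG10 and GABARAPL2 (0.10 each) and ATG7 (0.17) lay within the scatter of 0.17 between probe sets. Beyond it were ATG12 (0.23), ATG5 (0.34), SQSTM1 (0.55), NBR1 (0.66) and MAP1LC3B (1.32). MAP1LC3B alone reached 2-fold, and it passed the filter through the G-TPP array alone. Over all genes past the filter 44.0% were above 0 and 2.80% at least 2-fold higher, with a median of -0.04. Among 10 transcription factors known to act on autophagy or stress genes 4 of the 9 past the filter were at least 2-fold higher, against 2.80% of all genes past the filter. Like the other lists, this one was chosen with earlier results of these data known, so its count is not a test. The 4 were DDIT3 (3.06), which encodes CHOP, the stress cofactor NUPR1 (2.13), CEBPB (1.17) and, by its brighter probe set, ATF4 (1.22). The other probe set of ATF4 had a difference of -0.43. TFEB, the factor best known for lysosome and autophagy genes, had 243.6 with G-TPP and 267.2 with DMSO (-0.13), and its relative TFE3 had 820.4 with G-TPP and 512.5 with DMSO (0.68); both were singled out after their values were seen. The control genes ACTB and GAPDH had differences of -0.11 and -0.06.

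For each member at 2-fold, the 3 genes outside the lists with the nearest measured log2 difference were looked up; over 2 arrays this likeness means a similar ratio and no more. For GABARAPL1 these included LY96 (2.52), which encodes the MD-2 partner of TLR4, and the Hsp40 gene DNAJB4 (2.50). For WIPI1 they included LURAP1L (2.43) and again DNAJB4. The remaining gene was the small heat shock protein gene CRYAB for GABARAPL1 and the aldo-keto reductase gene AKR1B10 for WIPI1. With DMSO both were below the 95th percentile of olfactory receptors (172.6), so only bounds hold, at least 3.09-fold higher for CRYAB and at least 2.20-fold for AKR1B10, and no similar ratio is shown for either. Nearest to MAP1LC3B were the tryptophanyl-tRNA synthetase gene WARS1 (1.32), ARFGAP3 (1.32), which acts in Golgi vesicle transport, and FRY (1.32).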

How the data were processed

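Total RNA of U251 cells was the starting material for Affymetrix arrays, 1 per agent, and groups follow the agent in the labels. The deposited intensity values were made by the authors with RMA in Affymetrix Expression Console 1.1.2, per the submitters' processing notes; RMA makes the distributions of arrays alike, so a change in total RNA per cell is not visible. How RMA values came to be linear, any filter and the build: not given in the sources used here. Probe sets were named from the platform annotation when it lists 1 gene (19460 of 33297), with symbols updated by gene ID through RefSeq (GRCh38.p14; 19429 found). The brightest probe set stood for a gene. No pseudocount was used, and calls were by size at 2-fold, since 1 array per group allows no test. The number of arrays limits the precision. Members and lists were chosen with earlier results of these data known. Named were all members, genes at 2-fold and up to 3 with the largest difference per list, and the nearest genes by ratio; motifs were chosen with the sequences in view. Promoters came from RefSeq (GRCh38.p14). The steps from intensities to 2-fold calls were tested on simulated data with known large changes. That test did not cover the promoter search or the variation between cultures. Tools were Python 3.11.15, pandas 2.3.3, matplotlib 3.10.9, numpy 2.4.6 and statsmodels 0.14.6.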

Additional observations from a re-analysis of the deposited data

Results flagged for a closer look

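A probe set that the comparisons leave out, because its annotation lists both MAP1LC3B2 and MAP1LC3B (probe set 7959023), carried a signal well above the DMSO level: its intensity was 5441 with G-TPP and 1763 with DMSO, a log2 difference of 1.63 or 3.09-fold. The probe set of MAP1LC3B alone had a log2 difference of 1.32 from dimmer values. Both exceeded 2-fold, and which of the near-identical genes gives the shared signal was not tested.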

How the results depend on the processing

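GABARAPL1 and WIPI1 were called higher under each alternative run. MAP1LC3B was too, except at a 3-fold threshold and at the 75th percentile filter, where MAP1LC3A, MAP1LC3B, MAP1LC3C, WDR45 and WIPI2 did not pass. At 1.5-fold WDR45 joined the other 3, which makes 4 members against 7.37% of genes past the filter, and at 3-fold 2 members remained against 0.875%. None of 40 recomputed member differences moved by as much as the scatter of 0.17, under lowess centring, median centring (a shift of all genes by 0.04), quantile normalization and a pseudocount of 16; other choices among probe sets cannot move a member, since each has 1. GABARAPL1 minus GABARAP ran from 2.38 to 2.43, WIPI1 minus WIPI2 from 2.37 to 2.42, MAP1LC3B minus MAP1LC3A from 0.76 to 0.80, and WDR45B minus WDR45 from -0.58 to -0.44. Family medians moved with the filter because it changes which genes enter: the ATG8 median over genes past the filter was 0.52, against 0.31 with no filter and 0.10 at the 75th percentile, and the WIPI median was 0.38, against 1.30 at the 75th percentile. Of the 50 partner genes past the filter 2 were called at 2-fold, 9 at 1.5-fold and 0 at 3-fold, where the shares of all genes past the filter were 2.80%, 7.37% and 0.875%. ATF4 was at -0.43 by its dimmer probe set, and the cause was not tested. No paired analysis was possible because each group has 1 array, and for the same reason no array could be left out. The LC3 genes lay nearest to background, and this limits their ratios most.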

Other observations

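Both partner genes past 2-fold were also looked up in the promoter table, a choice made after their values were seen. The 250 bases upstream of NRBF2 held 1 cAMP response element TGACGTCA, from base -88 to base -81, and 1 E-box CACGTG, from base -246 to base -241. Those of CALCOCO2 held neither, and held 3 GC boxes. No further hypothesis was tested.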
